A study of Mus musculus with 4 samples.

Results

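The genes described here encode proteins of the intercalated disc, the structure that joins heart muscle cells end to end. They comprise 10 of the 18781 genes with a named probe set and were chosen by gene symbol, each read by 1 probe set. The 10 are the Xin actin-binding repeat genes Xirp1 and Xirp2 (2 genes), the nebulin-related gene Nrap, the desmosome genes Dsp, Pkp2, Jup, Dsg2 and Dsc2 (5 genes), and the adherens junction genes Cdh2 and Ctnna3 (2 genes). Every member lay above the median of all values in the table (5.71 on the log2 scale, called the floor) on all 4 arrays.

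Gene expression was measured in mouse heart at 2 months of age in 4 groups: atria of wild type mice (Mef2a+/+), atria of knockout mice (Mef2a-/-), and the ventricles of each genotype. Each group was 1 array of RNA pooled from 7 mice, and the pools held both sexes. With 1 array per group there is no replicate spread, and no difference below was tested. The values are log2 intensities made by the authors with RMA, and each comparison is a difference of 2 of them.

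Mef2a encodes MEF2A, a DNA-binding regulator of muscle genes. Its own probe set gave 10.32 and 10.41 in wild type and knockout-labelled atria, and 10.28 and 10.34 in the ventricles, so it was not lower under either knockout label. The deleted part of the gene is not named in the sources used here, so this signal does not check the labels, and every direction below rests on them. Chamber labels were borne out by markers: in each genotype, 6 of 6 atrial cardiomyocyte markers passed 2-fold toward atria and 6 of 6 ventricular markers passed it toward ventricles. General cardiomyocyte markers (8 of 8 above the floor on every array) had a median log2 ratio, knockout-labelled minus wild type, of −0.06 in atria and −0.02 in ventricles. Of the chamber markers, Sln (−0.85) and Myh7 (0.99) were past 1.5-fold between the genotypes, both in ventricles. In such bulk tissue, fewer cells of a type and less RNA per cell cannot be told apart.

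The disc holds several kinds of contact. At adherens junctions the cadherin N-cadherin (Cdh2) ties neighbouring cells together and catenins, among them αT-catenin (Ctnna3), link it to actin. At desmosomes the cadherins desmoglein-2 (Dsg2) and desmocollin-2 (Dsc2) are tied through plakoglobin (Jup) and plakophilin-2 (Pkp2) to desmoplakin (Dsp), which holds the desmin filaments. In adult heart both merge into a mixed junction, the area composita, and mutations of the desmosome genes are known causes of arrhythmogenic cardiomyopathy. Xin proteins bind and bundle actin filaments at these junctions, and Xirp2, also called myomaxin, has been described in earlier work as a direct target of MEF2A. NRAP ties the ends of myofibrils to the membrane at the disc.

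Among the 10 genes a single one, Xirp2, passed 1.5-fold between the genotypes, and it did so in both chambers, lower under the knockout label. Its paralog Xirp1 and the 7 desmosome and adherens genes all lay within 1.5-fold in both chambers. So did most genes: over all genes above the floor, 3.03% were past 1.5-fold in atria and 1.2% in ventricles. Nrap was lower in knockout-labelled atria by a little less than 1.5-fold. Between the chambers, Dsc2 was more than 2-fold higher in wild type atria, and Xirp2 and Nrap were more than 2-fold lower in knockout-labelled atria than in knockout-labelled ventricles. The share of all genes past 2-fold was 6.1% between wild type chambers and 6.3% between knockout-labelled chambers.

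The bases before the start of Xirp2 are shown first, because they hold a full match to the consensus sequence of the MEF2 family. The stretches before Nrap and Dsp are set beside it. By the atrial log2 ratio of knockout-labelled to wild type, Nrap was the member next lowest and Dsp the highest. All come from the RefSeq promoter table of build GRCm38.p6, which covers 250 bases before and 50 after each annotated start and holds 5 of the 10 members. They are written 5′ to 3′ on the strand of the gene, up to the base before the start, and capitals mark matches to the MEF2 consensus: chr2:67445752-67446001 on the plus strand for Xirp2, chr19:56390039-56390288 on the minus strand for Nrap and chr13:38151044-38151293 on the plus strand for Dsp.
Xirp2: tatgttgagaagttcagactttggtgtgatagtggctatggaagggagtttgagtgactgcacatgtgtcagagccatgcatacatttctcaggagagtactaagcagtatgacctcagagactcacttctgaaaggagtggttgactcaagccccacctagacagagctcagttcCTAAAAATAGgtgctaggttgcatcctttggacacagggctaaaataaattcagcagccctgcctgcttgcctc
Nrap: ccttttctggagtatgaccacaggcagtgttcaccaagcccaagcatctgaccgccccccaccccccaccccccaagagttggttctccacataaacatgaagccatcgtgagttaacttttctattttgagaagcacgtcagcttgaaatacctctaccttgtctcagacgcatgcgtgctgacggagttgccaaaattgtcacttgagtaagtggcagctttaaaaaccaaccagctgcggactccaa
Dsp: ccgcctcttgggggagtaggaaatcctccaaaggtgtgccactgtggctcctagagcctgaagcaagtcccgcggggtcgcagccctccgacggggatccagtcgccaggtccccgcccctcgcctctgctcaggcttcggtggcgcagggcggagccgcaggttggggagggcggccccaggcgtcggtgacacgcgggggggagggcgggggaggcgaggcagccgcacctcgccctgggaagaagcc

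The capitals before Xirp2 spell CTAAAAATAG, the textbook MEF2 site, at positions −74 to −65 counted from the annotated start. This sequence, searched on both strands, occurred in 36 of 32851 promoters of the table (0.110%), and the looser MEF2 consensus, which includes it, in 1047 (3.19%). Among the members with an entry (Xirp2, Nrap, Dsp, Jup and Ctnna3, the last with 3 annotated starts), Xirp2 alone held a match to either. Xirp2 also held 2 overlapping E-box matches (CANNTG), Nrap 3, Ctnna3 2 and Dsp 1, a motif found in 72.3% of all promoters. No member matched the CArG box (1.63% of promoters), and TATAAA (13.6%) occurred in 1 promoter of Ctnna3. The stretches also differ in base composition. Xirp2 has 46.8% G and C and 0 CpG pairs, and Dsp has 72.4% and 22, beside a median of 52.4% and 6 over all promoters. Nrap has 7 CpG pairs. A match describes letters in this window and does not show that a factor binds there.

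The CTAAAAATAG sequence was read from the promoter of Xirp2, so Xirp2 is among the genes that carry it by construction. Of 12 such genes above the floor in atria, and of 12 in ventricles, Xirp2 was the single one past 1.5-fold in either direction. The next lowest was the muscle protease gene Capn3, at −0.53 in ventricles and below the floor in atria. The medians of these genes were −0.04 in atria and 0.04 in ventricles, beside −0.04 and 0.00 over all genes with a promoter in the table. Of all genes with a promoter, 1.92% were past 1.5-fold lower and 0.936% higher in atria, and 0.659% and 0.444% in ventricles. At such shares few genes past the fold can be looked for in so small a set. Mef2a itself carries the sequence, as do the histone deacetylase gene Hdac5 (−0.05 in atria, −0.13 in ventricles) and the muscle kinase gene Speg (0.05, 0.04). Of 188 genes with the looser consensus, 11 were past 1.5-fold lower and 1 higher in atria, and 2 lower and 1 higher in ventricles. That is 5.85% lower in atria and 1.06% in ventricles, beside 1.92% and 0.659% of all genes with a promoter. Xirp2 holds the looser consensus too, so the 11 and the 2 both include it. No test of these shares was made.

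**Figure D1:**
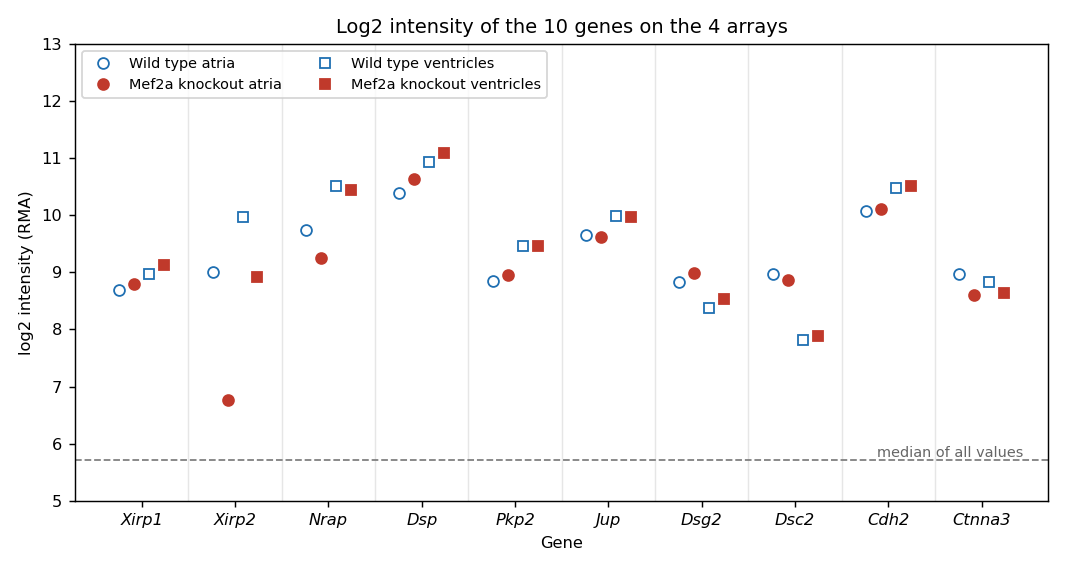
Log2 intensity (vertical axis) of each of the 10 genes on the 4 arrays, with circles for atria, squares for ventricles, open blue symbols for wild type and filled red for knockout-labelled pools; each symbol is 1 array and the dashed line is the median of all values, 5.71. Xirp2 spans the widest range, from 6.76 on knockout-labelled atria to 9.98 on wild type ventricles.

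Xirp2 was read at 8.999 in wild type atria, 6.76 in knockout-labelled atria, 9.98 in wild type ventricles and 8.91 in knockout-labelled ventricles (log2 intensity). Wild type ventricles were highest, wild type atria and knockout-labelled ventricles were nearly level, and knockout-labelled atria lay far below the rest. The log2 ratio of knockout-labelled to wild type was −2.24 in atria, or 4.73-fold lower, and −1.06 in ventricles, or 2.09-fold lower. It was the second lowest of 10050 genes above the floor in atria and at rank 18 from the lowest of 9712 in ventricles. Over all genes above the floor, the share past 1.5-fold in either direction was 3.03% in atria and 1.2% in ventricles, and the share past it lower was 2.01% and 0.69%. The 10 members gave 1 of 10 in each chamber.

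The difference of the Xirp2 log2 ratio between the chambers, atria minus ventricles, was −1.18, at rank 15 from the lowest of 9436 genes above the floor in both. Median centring, quantile normalization and removal of a lowess trend moved this value between −1.24 and −1.11. Under the same 3 scalings the atrial ratio of Xirp2 stayed between −2.28 and −2.19 and the ventricular ratio between −1.08 and −1.04. The chamber difference was not tested, since it rests on 4 single arrays.

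Xirp1, which encodes the other Xin protein of mouse heart, did not follow Xirp2. It was read at 8.68 in wild type atria, 8.80 in knockout-labelled atria, 8.97 in wild type ventricles and 9.13 in knockout-labelled ventricles. The knockout-labelled pool was the higher of the pair in each chamber, by 0.12 in atria and 0.16 in ventricles. Those log2 ratios stood at rank 2278 from the highest of 10050 genes and at rank 1101 of 9712. The log2 ratio of Xirp2 minus that of Xirp1 was −2.36 in atria and −1.22 in ventricles, so the pair of Xin genes parted in both chambers.

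Nrap was read at 9.75 in wild type atria, 9.25 in knockout-labelled atria, 10.51 in wild type ventricles and 10.44 in knockout-labelled ventricles. Both ventricular arrays lay above both atrial arrays, and knockout-labelled atria were lowest. The log2 ratio of knockout-labelled to wild type was −0.50 in atria (1.41-fold lower) and −0.07 in ventricles. The atrial value lay inside the central 95% of all genes above the floor, which ran from −0.55 to 0.45, and at rank 343 from the lowest. The ventricular central range was −0.33 to 0.32. Median centring, quantile normalization and the lowess trend gave atrial values of −0.53, −0.46 and −0.46, none past 1.5-fold.

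**Figure D2:**
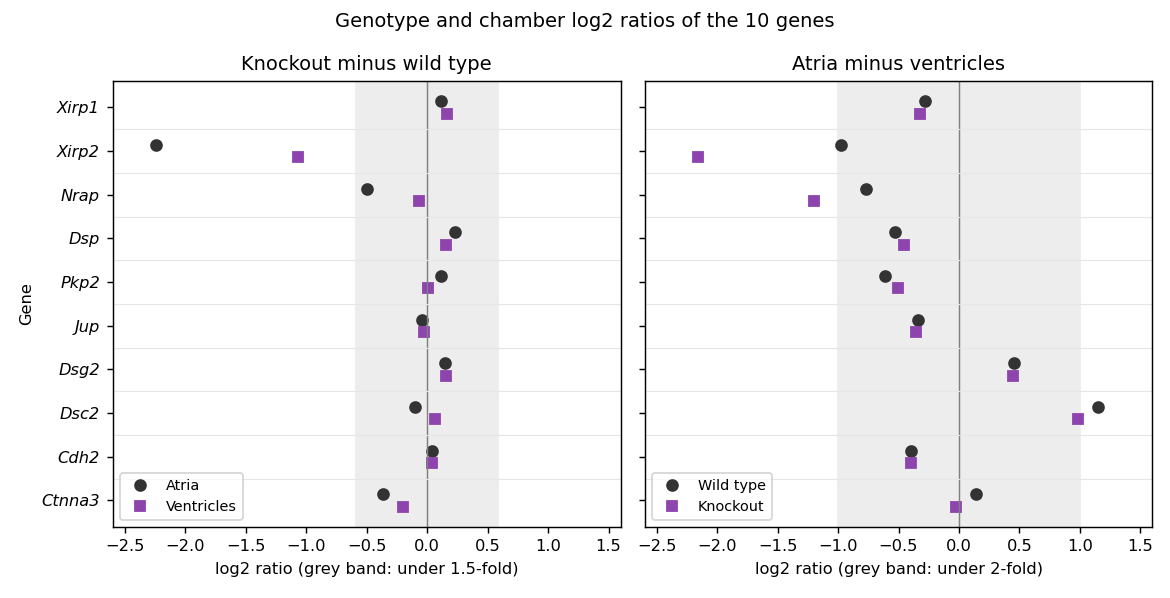
Log2 ratios of the 10 genes: at left knockout-labelled minus wild type in atria (circles) and ventricles (squares), at right atria minus ventricles in wild type (circles) and knockout-labelled (squares) pools. Each symbol is the difference of 2 arrays and the grey bands mark differences under 1.5-fold and 2-fold. At left Xirp2 alone lies outside the band, at −2.24 and −1.06.

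The desmosome genes differed little between the genotypes, with log2 ratios of knockout-labelled to wild type from −0.10 to 0.23 in atria and from −0.02 to 0.16 in ventricles. None of the 5 passed 1.5-fold, which 3.03% of all genes above the floor did in atria and 1.2% in ventricles. The medians of the 5, at 0.11 and 0.07, stand beside −0.03 and 0.00 over all genes above the floor. Dsp, the plakin that anchors intermediate filaments, was highest of the 5 in each chamber. It was read at 10.40 in wild type and 10.63 in knockout-labelled atria, and at 10.93 and 11.09 in ventricles. The knockout-labelled pool was thus higher by 0.23 and 0.16. Pkp2, the armadillo protein of the cardiac desmosome plaque, was read at 8.85 and 8.96 in atria and at 9.46 and 9.47 in ventricles, in the same order. The ventricular difference of 0.01 turned sign under quantile normalization and under the lowess trend.

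Jup, the plakoglobin gene shared by desmosomes and adherens junctions, had the smallest range of the plaque genes over the 4 arrays, 0.38. It was read at 9.65 in wild type and 9.61 in knockout-labelled atria, and at 9.99 and 9.97 in ventricles. Both ratios, −0.04 and −0.02, turned sign under at least 1 other scaling. The desmosomal cadherin gene Dsg2 was read at 8.84 and 8.98 in atria and at 8.38 and 8.54 in ventricles, higher under the knockout label by 0.15 and 0.16. Its partner Dsc2 was read at 8.97 and 8.87 in atria and at 7.82 and 7.89 in ventricles, with ratios of −0.10 and 0.07. The genotype differences of both cadherins were thus small beside their chamber differences.

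Of the adherens genes, Cdh2 was read at 10.07 in wild type and 10.11 in knockout-labelled atria, and at 10.47 and 10.51 in ventricles. The ratio was 0.04 in each chamber. Ctnna3, the α-catenin that is found mainly in heart and testis and that binds plakophilin-2, was read at 8.97 and 8.61 in atria and at 8.83 and 8.63 in ventricles. Both wild type arrays lay above both knockout-labelled arrays, by at least 0.20. Its ratios of −0.37 and −0.20 were the lowest of the 7 junction genes in each chamber, short of 1.5-fold and inside the central 95% of all genes in each. They held their sign under the 3 scalings, at −0.40 to −0.31 in atria and −0.22 to −0.17 in ventricles.

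Set against the 7 junction genes, Xirp2 stood below all 7 in both chambers. Its log2 ratio minus their median was −2.28 in atria and −1.10 in ventricles, and the gap to the lowest of them, Ctnna3, was −1.88 and −0.87. Nrap was also below all 7 in atria, at −0.53 from the median and −0.13 from Ctnna3, but in ventricles it stood above Ctnna3. Xirp1 lay inside the junction genes' range in atria and level with the top of it in ventricles, at 0.16 beside 0.16 for Dsp. The Xin repeat genes as a pair therefore have no common value: their median of −1.06 in atria and −0.45 in ventricles lies between 2 distant members.

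**Figure D3:**
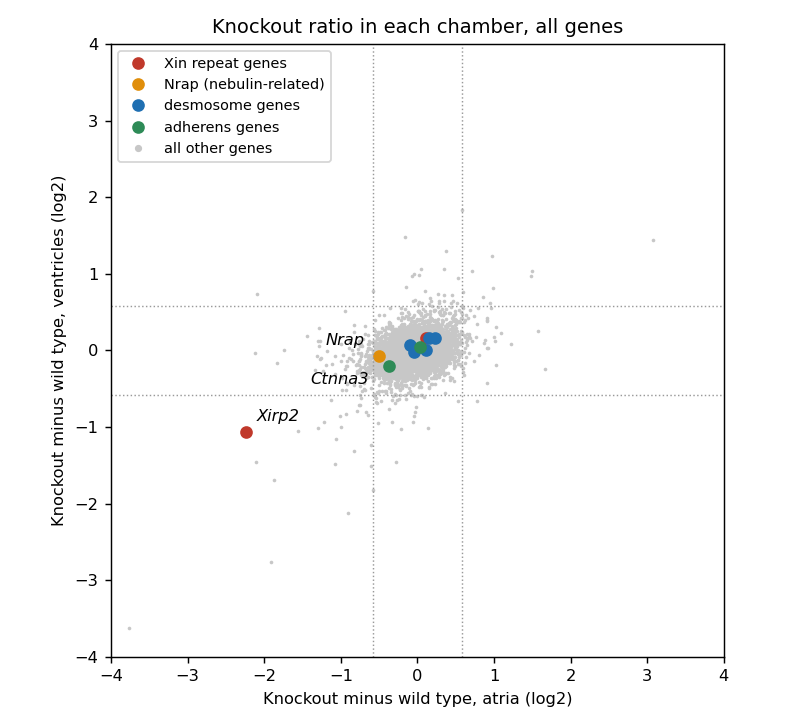
Knockout-labelled minus wild type log2 ratio in atria (horizontal axis) and ventricles (vertical axis) for the 9436 genes above the floor in both chambers, grey, with the 10 genes in colour by role. Dotted lines mark 1.5-fold. The Xin gene at lower left is Xirp2 (−2.24, −1.06), while Xirp1 and the junction genes lie within the grey mass.

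Ordering of the arrays by chamber was common among the 10 genes, as it was over all genes. In 6 of them (Xirp1, Nrap, Dsp, Pkp2, Jup and Cdh2) both ventricular arrays were above both atrial arrays, an order that 37.5% of 10326 genes above the floor on any array had. In Dsg2 and Dsc2 both atrial arrays were above both ventricular arrays (31% of genes). In Xirp2 and Ctnna3 both wild type arrays were above both knockout-labelled arrays (10.5% of genes), and in no member was the reverse true (8.25% of genes). The gap that sets this order in Xirp2 is the small one of 0.09 between wild type atria and knockout-labelled ventricles. All 10 orders held under median centring and quantile normalization. Without replicate arrays it cannot be said which neighbours in these orders differ beyond their spread.

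In the wild type chamber comparison 1 member passed 2-fold, beside 6.1% of all genes above the floor in either direction and 3.89% higher in atria. This was Dsc2, with a log2 ratio of atria to ventricles of 1.15, or 2.21-fold higher in atria. Dsg2 was higher in atria by 0.46. Xirp2, at −0.98, lay just short of 2-fold lower in atria and passed it under median centring (−1.01). Nrap was at −0.77, Pkp2 at −0.61, Dsp at −0.53, Cdh2 at −0.40, Jup at −0.34 and Xirp1 at −0.28. Ctnna3 was at 0.14. The 5 desmosome members therefore held both directions, with plaque genes Dsp, Pkp2 and Jup lower in atria and cadherin genes Dsg2 and Dsc2 higher. These signs were kept under the 3 scalings. The split describes these members only. Of 4 other desmosome genes above the floor, 3 were higher in wild type atria, among them Pkp4 (0.54) and Ppl (1.70), and Des was lower (−0.41).

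Between the knockout-labelled chambers 2 members passed 2-fold, both lower in atria, beside 6.3% of all genes in either direction and 2.85% lower. Xirp2 was at −2.15 (4.45-fold lower in atria) and Nrap at −1.20 (2.29-fold lower). Dsc2 was at 0.98, just short of 2-fold higher in atria, and passed under quantile normalization (1.05) and the lowess trend (1.09). The other 7 members were from −0.51 (Pkp2) to 0.45 (Dsg2), and Ctnna3, at −0.03, turned sign under quantile normalization and the lowess trend. Of all genes past 2-fold in this comparison 350 were higher and 288 lower in atria, a split that median centring turned to 305 and 377. The 2 chamber comparisons each share an array with each genotype comparison. The low Xirp2 and Nrap values in knockout-labelled atria thus enter the atrial genotype comparison and the knockout-labelled chamber comparison.

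The arrays also differed in markers of cells other than cardiomyocytes. Epicardial and mesothelial markers, from layers that also build desmosomes, were higher in wild type atria in 9 of 9 genes measured. Their mean level was 7.15 and 7.24 in wild type and knockout-labelled atria and 5.42 and 5.54 in the ventricles. Of these Krt18 was past 1.5-fold between the genotypes, at 0.60 in atria. Dsc2 and Dsg2 were higher in atria, as this list was, while Dsp, Pkp2 and Jup were lower there. Fibroblast markers were also higher in atria than in ventricles, in 8 of 8 genes in each genotype. Their medians for this were 0.83 in wild type and 0.47 in knockout-labelled pools. The part of either list in the atrial excess of Dsc2 and Dsg2 was not tested. Fibroblast markers were lower in knockout-labelled atria in 8 of 8 genes, with a median of −0.44 and 3 past 1.5-fold (Lum at −0.84, Pdgfra at −0.63 and Dpt at −0.62), and in ventricles in 8 of 8 with a median of −0.15 and 0 past it. Their part in the values of Nrap, Xirp2 and Ctnna3 was not tested. Xirp2 and Nrap are also genes of skeletal muscle. Of 10 skeletal muscle markers 2 reached the floor on wild type atria, 1 on knockout-labelled atria, 1 on wild type ventricles and 0 on knockout-labelled ventricles. The defining myosin genes Myh1, Myh2 and Myh4 were below the floor on all 4 arrays. The 2 markers at the floor, Tnnt3 and Tnni2, had log2 ratios of −0.66 and −0.59 in knockout-labelled against wild type atria, in the same direction as Xirp2 and Nrap. The other markers of this list were below the floor in atria and went in both directions there, from −0.44 (Myh4) to 0.31 (Mylpf). The part of this list in the values of Xirp2 and Nrap was not tested. Endothelial markers had medians of 0.02 in atria and 0.04 in ventricles, and 0 of the 3 measured neuron or Schwann cell markers reached the floor. The female transcript Xist had knockout-labelled to wild type ratios of −0.33 and −0.15, and the Y-linked genes Uty −0.03 and −0.04, Eif2s3y −0.27 and 0.03, and Kdm5d −0.21 and −0.16. The part of the sex makeup of the pools was not tested.

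Further disc genes were described from 4 lists of 74 genes, of which 70 had a probe set and 61 were above the floor in atria and 59 in ventricles. Past 1.5-fold were 6 of 61 in atria and 2 of 59 in ventricles, all lower under the knockout label, with list medians of −0.02 in both chambers. Over all genes above the floor 2.01% and 0.69% were past it lower, and 3.03% and 1.2% in either direction. The atrial count was 3 under quantile normalization and under the lowess trend, where Neb, Klhl41 and Tmod4 did not pass. None of the other desmosome or adherens genes passed between the genotypes.

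Other desmosome genes above the floor in atria, 5 in number, ran from −0.36 for Ppl, the plakin periplakin, to 0.37 for Pkp3, with a median of 0.01. The 3 above it in ventricles ran from −0.24 (Perp) to 0.07 for Des, which encodes the desmin filaments that desmosomes anchor. The skin-type desmosomal cadherin genes Dsc1, Dsc3, Dsg3, Dsg1b and Dsg1c were below the floor on all 4 arrays. Between wild type chambers Ppl was at 1.70, from 7.24 in atria to 5.54 in ventricles, the same direction as Dsc2.

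The 20 other adherens and area composita genes above the floor had medians of 0.02 in atria and 0.04 in ventricles. Tmem65, a membrane protein of the disc, was lowest in both (−0.44 and −0.17). Nectin1 was highest in atria (0.28) and Nectin2 in ventricles (0.26). The central linkers stood close to 0: Ctnnb1 (β-catenin) at −0.02 and 0.04, Vcl (vinculin) at −0.09 and −0.03, and Ctnna1 (αE-catenin), the other α-catenin of the disc, at −0.10 and −0.12. Ctnna1 therefore lay nearer 0 than Ctnna3 in both chambers.

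Of 10 gap junction, channel and anchor genes above the floor, the inward rectifier channel gene Kcnj2 (−0.78) and the ankyrin-B gene Ank2 (−0.64) were past 1.5-fold lower in atria, and 0 passed in ventricles. Kcnj2 was also lowest in ventricles, at −0.30. Popdc3 was highest in atria (0.38) and the atrial connexin gene Gja5 highest in ventricles (0.51). Gja1, the main ventricular connexin, was at −0.05 and 0.05. Gja5 was far higher in atria in both genotypes, by 3.91 and 3.69.

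The list of Xin and Nrap partners and actin linkers held the remaining genes past 1.5-fold. In atria Cavin4, a muscle caveolar coat gene, was at −1.83, Neb (nebulin) at −0.61, the tropomodulin gene Tmod4 at −0.61 and Klhl41 at −0.60. Cavin4 was read at 4.87 on knockout-labelled atria, below the floor. In ventricles Neb was at −1.51 and Tmod4 at −1.24, with Neb at 5.15 on the knockout-labelled array, also below the floor. Klhl41, whose kelch-repeat product binds NRAP, was at −0.49 there, while Nrap was at −0.07. Among known partners of Xin proteins, filamin C (Flnc) was at 0.10 and 0.09, and Enah (Mena) at −0.01 and −0.16. They were picked from the list as examples close to 0 and do not stand for all partners. The highest of the 26 list members above the floor were the actin linker genes Zyx (0.33) in atria and Actn1 (0.19) in ventricles. The list medians were −0.06 and −0.14.

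Between the wild type chambers 6 of the 61 genes of these 4 lists above the floor passed 2-fold, beside 6.1% of all genes. Higher in atria were Gja5, Ppl and the keratin gene Krt19 (1.23), and lower were Cavin4 (−1.52), Fhl2 (−1.41) and Tmod4, which lay at the threshold itself. Between the knockout-labelled chambers 8 of 61 passed, beside 6.3% of all genes. Higher were Gja5, Ppl (1.34), Neb (1.34) and Krt19 (1.10). Lower were Cavin4 (−3.19), Fhl2 (−1.70), the disc-associated gene Lmo7 (−1.19) and Limch1 (−1.01). This split of 4 higher and 4 lower became 6 and 3 under quantile normalization and under the lowess trend, and 4 and 6 under median centring. Short of 2-fold, the ends of the lists were Des (−0.41 and −0.48 in wild type and knockout-labelled pools) for the other desmosome genes and Cdh13 (0.45 and 0.60) for the adherens genes. Myzap, a disc protein, was lowest of the adherens genes between wild type chambers, at −0.74. Among gap junction and channel genes Popdc3 was lowest in the wild type pair (−0.53) and Ank2 in the knockout-labelled pair (−0.94).

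**Figure D4:**
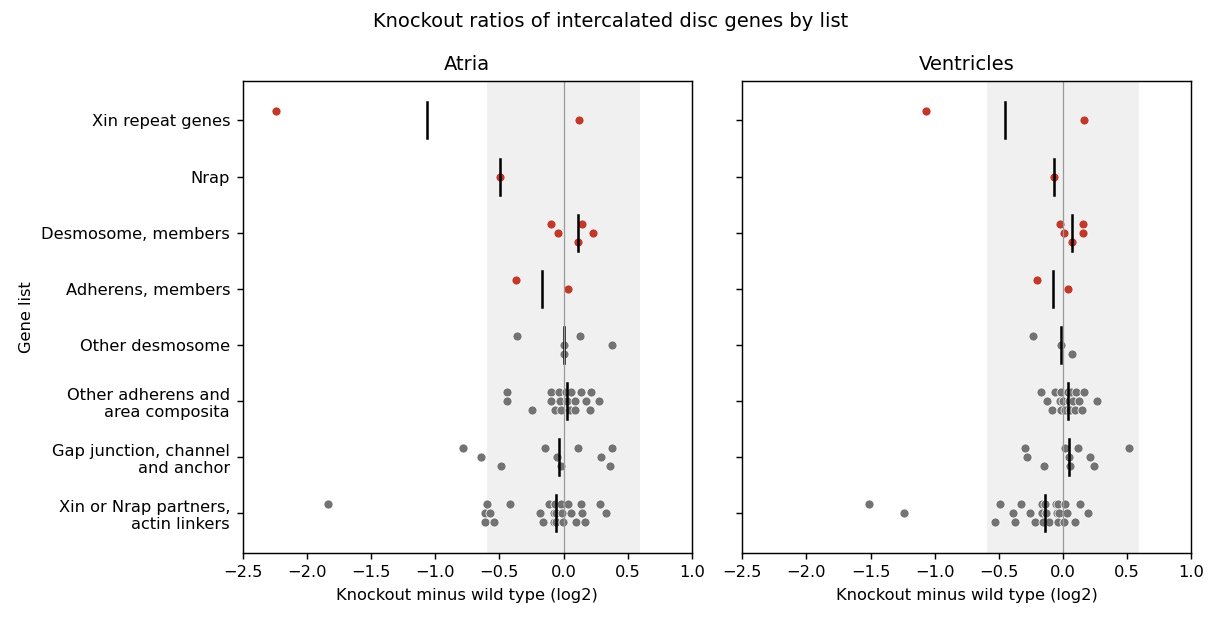
Knockout-labelled minus wild type log2 ratios (horizontal axis) in atria and ventricles, by gene list; each dot is 1 gene above the floor, red for the 10 genes, grey for the 4 further lists, black bars are list medians and the grey band marks differences under 1.5-fold. Dots left of the band are Xirp2 and, among the further genes, Cavin4, Kcnj2, Ank2, Neb, Tmod4 and Klhl41 in atria and Neb and Tmod4 in ventricles.

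Genes whose pattern over the 4 arrays was most like that of Xirp2 were found by the Euclidean distance of log2 values after each gene's mean was subtracted, among 10326 genes. The nearest was Mrgprh, a receptor gene, at a distance of 0.37. It was read at 6.80 and 4.70 in wild type and knockout-labelled atria and at 7.82 and 6.36 in ventricles, in the same order of arrays as Xirp2. Next came Hadhb (0.86), 2310002L09Rik (0.87), Smco1 (0.91) and Abcb4 (1.01). Of these Hadhb, a gene of mitochondrial fatty acid oxidation, was low in knockout-labelled atria alone, with ratios of −1.74 and 0.00. For Nrap the nearest genes were much closer: Clpx (0.02), a mitochondrial chaperone gene, Galnt7 and Mpc1 (both 0.07), the latter the mitochondrial pyruvate carrier, Pex7 (0.07) and Prelid2 (0.08). Xirp1 spanned less than 1.5-fold over the arrays and was not searched. With 4 arrays such a distance describes a shape and no more.

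The genes that flank Xirp2 stood closer to 0 than Xirp2 did, as nearly all genes above the floor did. In the order of the RefSeq gene table, the nearest measured protein-coding genes above the floor were Scn7a on one side, at −0.45 and −0.20, and Stk39 on the other, at −0.06 and 0.08. Genes that overlap a member could share its signal. The gene overlapping Nrap, Habp2, and the one overlapping Ctnna3, Lrrtm3, were below the floor on all 4 arrays.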

How the data were processed

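RNA from atria and ventricles of mice labelled Mef2a wild type or knockout was pooled from 7 animals per group and read on 1 array each. Each probe set has 1 deposited log2 intensity, made by the authors with RMA and the affy package per the submitters' processing notes. Versions and the genome build are not given in the sources used here. RMA compresses differences near background.

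Of 21212 probe sets 18786 had 1 gene symbol, 6 several and 2420 no entry in the platform annotation. Symbols were updated through RefSeq (GRCm38.p6; 18775 by gene number, 6 by accession, 5 kept). The probe set with the highest mean was kept for repeated symbols, which left 18781 genes. Log2 ratios were differences of 2 arrays. A gene was counted as past the fold at 1.5-fold (genotype) or 2-fold (chamber) with the brighter array at or above 5.71, the median of all values. No test was run: with 1 array per group none is possible within a chamber, and an additive genotype and chamber fit was not run, since its 1 residual degree of freedom holds the chamber dependence of the genotype difference. The members, gene lists and thresholds were chosen with earlier results of these data known, so nothing here is independent support for them. Named were all members, every gene of the 4 further disc lists past the fold, and the highest and lowest of each of those lists. Of the marker lists the genes past 1.5-fold between genotypes were named. So were Myh1, Myh2, Myh4 and Mylpf of the skeletal muscle list, which were below the floor. The rest are given as counts. Some linkers close to 0, the skin-type cadherins, the chosen promoter examples and the flanking genes were named after their values were seen. Marker lists covered cardiomyocytes (general, atrial, ventricular), epicardium, skeletal muscle, fibroblasts, endothelium and neurons or Schwann cells. Promoters were searched on both strands for CTAAAAATAG, the MEF2 consensus, the CArG box, CANNTG and TATAAA. Alternatives were median centring, quantile normalization, a lowess trend (fraction 0.3; statsmodels 0.14.6), no floor, a higher floor and another fold. The counting was tested on simulated data. Python 3.11.15 was used.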

Additional observations from a re-analysis of the deposited data

How the results depend on the processing

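Each group is 1 array and the labels give no replicate numbers, so no replicate could be left out. An analysis with the chamber as a block, which would leave 1 residual degree of freedom, was not run. Xirp2 was the single member past the genotype fold in both chambers under median centring, quantile normalization, the lowess trend, no floor, the 75th percentile floor and 2-fold in place of 1.5-fold. Of the 40 member ratios (10 genes in 4 comparisons), 36 kept their sign under the 3 scalings, and the 4 that turned were at most 0.04 in size. For the chamber difference of the knockout ratio the 3 scalings were chosen after seeing the data. Under each of them Xirp2 stayed past 1.5-fold and the other members stayed short of it.

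Members past 2-fold between wild type chambers numbered 1, but 2 under median centring and 4 at 1.5-fold. The further disc genes past the fold in knockout-labelled atria numbered 6, but 3 under quantile normalization, 3 under the lowess trend and 1 at 2-fold. In ventricles they numbered 2, but 1 with the floor at the 75th percentile. Between wild type chambers they numbered 6, but 12 at 1.5-fold, and between knockout-labelled chambers 8, but 5 with the higher floor and 17 at 1.5-fold. Fewer genes are counted under a higher floor or fold by construction; the cause of the other differences was not tested. Precision is limited by there being 4 arrays.

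Over all genes, 305 were past 1.5-fold in atria and 117 in ventricles. The counts were 558 and 220 with no floor, 115 and 56 with the floor at the 75th percentile and 65 and 36 at 2-fold. Between chambers, 1.5-fold in place of 2-fold gave 1632 wild type and 1815 knockout-labelled genes, from 612 and 638, and the higher floor gave 406 and 419.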
